A study of Mus musculus with 12 samples.

Results

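The SPARC family of matricellular genes was followed across the 4 treatments of C57MG cells, a mouse mammary epithelial cell line. Its 8 members were *Smoc1*, *Smoc2*, *Sparc*, *Sparcl1*, *Spock1*, *Spock2*, *Spock3* and *Fstl1*, of 22410 gene symbols on the array. They were found by their symbol among the non-control spots, which gave 14 of 41174 probes. The cells received for 24 h either Rspo2 at 100 ng/ml, Wnt3a at 100 ng/ml, both proteins at these doses, or the carrier protein bovine serum albumin (BSA) as the control. Each group had 3 monolayers, each hybridized to its own single-color array. All groups were the same cell line, moved before treatment from growth medium with serum and insulin to medium without these supplements. The labels name no other treatment, so the groups describe 1 line at 1 time. Wnt3a is a secreted ligand that stabilizes β-catenin, and Rspo2 is a secreted protein that enhances the response to Wnt ligands. The comparisons asked what each protein did alone and what Rspo2 added to Wnt3a.

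Members of this family are secreted glycoproteins that share a follistatin-like domain and calcium-binding EF-hand motifs. Matricellular proteins bind the extracellular matrix and cell surfaces without being structural parts of the matrix, and they alter adhesion, growth factor access and matrix assembly. SPARC binds collagens, SMOC proteins of basement membranes modulate BMP signaling, the SPOCK proteins (testicans) carry glycosaminoglycan chains, and FSTL1 binds BMP ligands and their receptors.

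In brief, 3 of the 8 genes gave signals above background by the detection rule, and they behaved differently. *Smoc1* fell 3.82-fold with Rspo2+Wnt3a (log2 change -1.93). With another background correction, which also adds an offset of 50 units, its log2 change was -1.13 and not called. *Fstl1* reached the detection rule in the Rspo2+Wnt3a group only. *Sparc*, measured by a pair of very bright probes, stayed within 1.49-fold of BSA by both probes. *Smoc2*, *Sparcl1*, *Spock1*, *Spock2* and *Spock3* were not detected in any group.

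The upstream sequences of *Fstl1*, of *Sparc* and of the single member with a TCF/LEF word are shown, because the treatments act on the pathway whose nuclear factors are TCF/LEF proteins. RefSeq promoter sequences of build GRCm38.p6, from 250 bases before to 50 after the start, were at hand for 5 of the 8 genes in 6 sequences. The word CTTTG followed by AA, by AT, by TA or by TT was searched on both strands, and a match is printed in capitals. Such words were present in 1 of the 6 member sequences, that of *Spock2*, and in 16.9% of all 32851 promoters of the same length.
Fstl1 promoter, chr16:37776805-37777104, plus strand: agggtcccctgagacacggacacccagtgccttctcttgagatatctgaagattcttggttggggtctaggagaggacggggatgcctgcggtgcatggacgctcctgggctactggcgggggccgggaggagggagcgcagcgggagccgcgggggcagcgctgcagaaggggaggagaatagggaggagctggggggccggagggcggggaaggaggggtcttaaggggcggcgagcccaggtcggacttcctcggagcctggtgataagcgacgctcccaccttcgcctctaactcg
Sparc promoter, chr11:55420031-55420330, minus strand: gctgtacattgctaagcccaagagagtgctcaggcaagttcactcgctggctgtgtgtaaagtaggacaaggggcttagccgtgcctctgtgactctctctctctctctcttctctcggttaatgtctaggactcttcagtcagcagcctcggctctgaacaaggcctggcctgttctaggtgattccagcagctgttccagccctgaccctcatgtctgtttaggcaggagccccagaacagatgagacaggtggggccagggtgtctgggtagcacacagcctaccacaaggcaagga
Spock2 promoter, chr10:60106007-60106306, plus strand: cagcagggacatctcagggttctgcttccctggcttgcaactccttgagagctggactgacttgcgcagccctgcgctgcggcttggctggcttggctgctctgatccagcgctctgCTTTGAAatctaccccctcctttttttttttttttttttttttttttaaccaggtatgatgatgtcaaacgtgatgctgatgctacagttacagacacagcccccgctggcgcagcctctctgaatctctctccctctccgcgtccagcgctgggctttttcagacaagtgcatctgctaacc
The windows of *Fstl1* and *Sparc* held none of these words, which says only that the letters were not in these windows. *Smoc1*, the member with the largest change, lies at chr12:81026808-81186414 in GRCm38.p6 and had no promoter sequence at hand.

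Signals are background-subtracted intensities, in arbitrary units, and the scaled signal is their log2 value less the 75th percentile of the array, so that 0 is the level of that percentile. A probe was detected when the scanner software marked it well above background on every array of 1 or more groups. This held for 22750 probes and for 4 of the 14 member probes. Calls of change required an adjusted p under 0.05 (limma, Benjamini-Hochberg over all detected probes) together with a change of at least 2-fold. Between 51.3% and 64.1% of the probes were well above background on an array, and BSA replicate 1 had the highest share. The arrays lay on 3 slides, and BSA shared none with Wnt3a or with Rspo2+Wnt3a, so those comparisons with BSA were made across slides.

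With Rspo2+Wnt3a against BSA, 1 of the 4 detected member probes was called lower and 1 higher, where 3.79% and 1.28% of all detected probes were called in these directions. The probe called higher, that of *Fstl1*, passed the detection rule through the group with both proteins only, so its call is no support for a change among the members. Rspo2 alone and Wnt3a alone gave no called member probe by limma against BSA, with backgrounds of 0.721% and 2.52%. Unadjusted limma p-values were under 0.05 for 2 of the 4 probes with Rspo2 and for 3 with Wnt3a. Over all genes, each by its brightest detected probe, 37.7% and 43.9% had such p-values. The methods' t-test also called 0 member probes in each of these comparisons, with or without a Benjamini-Hochberg adjustment. Between Rspo2+Wnt3a and Wnt3a, 1 member probe was called, against 0.747% of all probes. The interaction, which is the log2 change with both proteins less the changes with each alone, was called for 2 member probes, against 1.93% of all probes, and 1 of the 2 was again that of *Fstl1*.

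*Smoc1* encodes a secreted modular calcium-binding protein of basement membranes that antagonizes BMP signals. Its probe, A_51_P443403, was well above background on all 12 arrays, though dim. The scaled log2 signals were -2.77, -2.98 and -3.13 with BSA, and -2.97, -2.98 and -3.04 with Rspo2. They were -3.74, -3.75 and -3.70 with Wnt3a, and -4.54, -5.05 and -5.09 with Rspo2+Wnt3a. The BSA and Rspo2 arrays overlapped, all 3 Wnt3a arrays lay below both, and all 3 arrays with the combination lay below the Wnt3a arrays. In intensity units the probe went from 123 to 145 with BSA down to between 28.9 and 40.4 with both proteins. The lowest signals well above background on those last arrays were 19.0, 20.4 and 23.3. Before background subtraction the mean signal was 135 with Wnt3a and 116 with both proteins, over mean local backgrounds of 71.3 and 72.3. The folds that involve the combination thus rest on signals near the background.

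The *Smoc1* signal fell by 1.93 on the log2 scale with Rspo2+Wnt3a (SE 0.14, n = 3 arrays per group, limma adjusted p = 4.03e-06), 3.82-fold lower than BSA. Of all 22750 detected probes, 95 had a lower value in this comparison. With Wnt3a alone the log2 change was -0.77 (SE 0.14), 1.70-fold lower, with a limma adjusted p of 0.00298 but less than the 2-fold required for a call. With Rspo2 alone the log2 change was -0.03, with a 95% interval from -0.34 to 0.28 and a limma adjusted p of 0.892. Adding Rspo2 to Wnt3a lowered the signal 2.24-fold (log2 change -1.16, SE 0.14, limma adjusted p = 0.000802). The interaction was -1.13 (SE 0.20, limma adjusted p = 0.0101), so the fall with both was larger than the sum of the separate log2 changes. The normexp background correction subtracts the local background, models what remains and adds an offset of 50 units to every spot. With it the log2 change with both proteins was -1.13 (limma adjusted p = 0.180) and that against Wnt3a was -0.55 (limma adjusted p = 1). Neither was called, and the part of the offset in these smaller changes was not tested. The methods' t-test, for which the methods name no adjustment, called both changes when left unadjusted. With a Benjamini-Hochberg adjustment over all probes it kept the first call but gave an adjusted p of 0.373 for the second. *Smoc1* is among the genes that the study itself selected from these arrays, so its direction here is not independent evidence. Apart from the arrays, the study lists *Smoc1* among the genes it checked by qRT-PCR. It also reports, by qRT-PCR, that β-catenin knockdown disrupted the fall of *Smoc1* with both proteins. Those measurements were not used here.

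The slides changed the size of the *Smoc1* changes little. Once slide entered the fit as a term, the log2 change with Rspo2+Wnt3a was -1.93 (SE 0.35, limma adjusted p = 0.0294) and that against Wnt3a was -1.19 (limma adjusted p = 0.0358), both still called. The interaction kept its size under this term (-1.19) but was no longer called (limma adjusted p = 0.132), and the limma adjusted p of the Wnt3a change became 0.301. Within slide 2, the mean of the Wnt3a arrays differed from that of the Rspo2 arrays by -0.74 on the log2 scale (2 arrays each). Within slide 3, the 3 arrays with both proteins differed on average from Wnt3a replicate 3 by -1.19, and within slide 1 Rspo2 replicate 1 differed from the BSA mean by -0.0039.

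**Figure D1:**
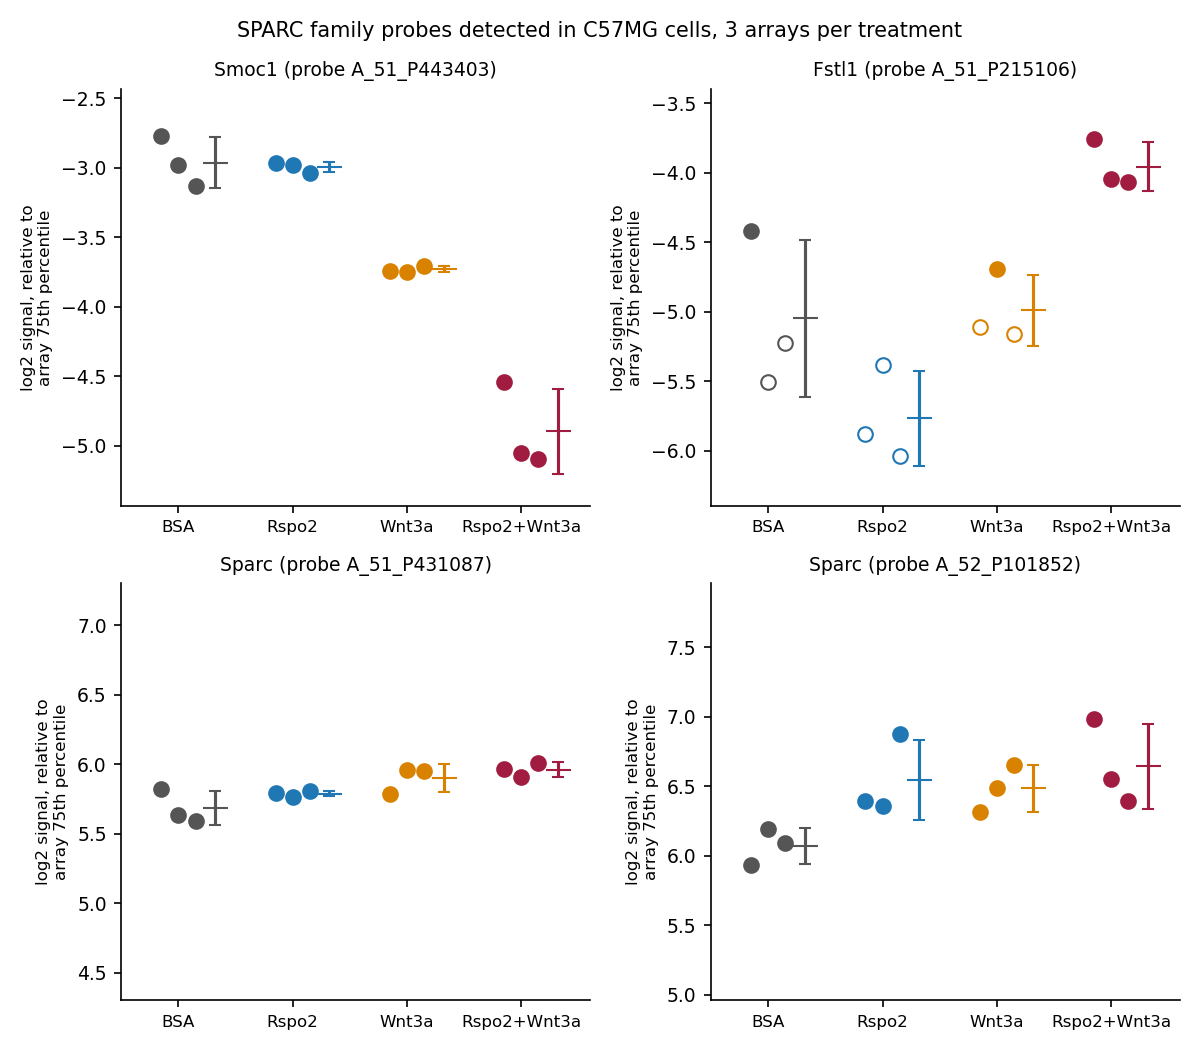
Scaled log2 signal of the 4 detected member probes on each array (points, 3 per treatment), with the group mean and SD beside them; filled points were well above background on that array and open points were not. *Smoc1* steps down from -2.96 on average with BSA to -4.90 with Rspo2+Wnt3a, and *Fstl1* is highest with both proteins at a mean of -3.95. The group means of the *Sparc* probes differ less, and all treated arrays of A_52_P101852 lie above its BSA arrays. All panels span 3 log2 units, and levels of different probes are not comparable.

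*Fstl1*, which encodes follistatin-like 1, a secreted glycoprotein that binds BMP4 and the DIP2A receptor, had 1 probe, A_51_P215106. It was well above background on 1 of 3 arrays with BSA, on 0 of 3 with Rspo2, on 1 of 3 with Wnt3a and on all 3 with both proteins, so it entered the test through the group in which it was highest. The intensities were 44.6, 25.3 and 29.0 with BSA and 17.4, 21.1 and 12.1 with Rspo2. They were 26.0, 29.9 and 22.5 with Wnt3a and 69.8, 58.1 and 63.2 with Rspo2+Wnt3a. In intensity and in scaled signal, the 3 arrays with both proteins were above every other array, and the BSA and Wnt3a arrays overlapped. The 3 Rspo2 arrays were the lowest in intensity only. In scaled log2 signal they overlapped the BSA arrays, with Rspo2 replicate 2 at -5.38 and BSA replicate 2 at -5.50. The BSA array above background was BSA replicate 1.

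The fit gave a log2 change of 1.09 in the scaled *Fstl1* signal with Rspo2+Wnt3a against BSA (SE 0.26, n = 3, limma adjusted p = 0.00782), which met the call. Because 2 of the 3 BSA arrays were not well above background and the probe was tested only for its high group, this value is a description and its size is not a measured fold. Against Wnt3a the log2 change was 1.04 (SE 0.26), with a limma adjusted p of 0.0545, which missed the threshold. With Wnt3a alone it was 0.06 (limma adjusted p = 0.891). With Rspo2 alone, where no array was above background, the fit gave -0.72 (limma adjusted p = 0.0807), and no fold is given. The interaction of 1.75 (SE 0.37, limma adjusted p = 0.0219) rests on all 3 of these baselines, and its size is likewise not a measured one.

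The call of *Fstl1* was less secure than that of *Smoc1*. Without BSA replicate 2 the log2 change was 0.86 (limma adjusted p = 0.0312) and without Rspo2+Wnt3a replicate 1 it was 0.99 (limma adjusted p = 0.0321), both short of 2-fold. With slide as a term the change was 1.18 (SE 0.66) with a limma adjusted p of 0.446. Within slide 3 the arrays with both proteins averaged 1.21 higher than Wnt3a replicate 3 on the log2 scale. With the normexp background correction *Fstl1* changed by -0.063 and was not called. Under that correction Rspo2 replicate 2 and BSA replicate 1 stood apart, with *Fstl1* at -0.70 and -1.89 on the scaled log2 scale where the other 10 arrays were between -3.54 and -2.87. With those 2 arrays left out, an alternative chosen after seeing the data, the normexp changes with both proteins were 0.47 for *Fstl1* (limma adjusted p = 0.0124) and -0.80 for *Smoc1* (limma adjusted p = 0.000162), in the main directions and under 2-fold.

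*Sparc*, which encodes the collagen-binding founding member of the family (osteonectin), had 2 probes, A_51_P431087 and A_52_P101852, both well above background on all 12 arrays and saturated on none. The scaled log2 signals of the first were 5.82, 5.63 and 5.59 with BSA and 5.79, 5.77 and 5.81 with Rspo2. They were 5.78, 5.96 and 5.95 with Wnt3a and 5.97, 5.91 and 6.01 with both proteins. The 3 arrays with the combination were above the 3 BSA arrays, and the Wnt3a arrays overlapped each of these groups.

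The second *Sparc* probe read 5.94, 6.19 and 6.09 with BSA and 6.40, 6.36 and 6.87 with Rspo2. It read 6.31, 6.49 and 6.65 with Wnt3a and 6.99, 6.55 and 6.39 with both proteins. All 9 treated arrays were above the 3 BSA arrays, and the treated groups overlapped one another.

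Against BSA the combination changed the first *Sparc* probe by 0.28 on the log2 scale (SE 0.08, limma adjusted p = 0.0209), 1.21-fold with a 95% interval from 1.07 to 1.38. The second changed by 0.57 (SE 0.18, limma adjusted p = 0.0248), 1.49-fold with a 95% interval from 1.13 to 1.95. Neither met the 2-fold requirement, and both intervals lay below 2-fold. Between Rspo2+Wnt3a and Wnt3a the log2 differences were 0.06 and 0.16, with limma adjusted p-values of 0.740 and 0.682. With slide as a term the changes with both proteins against BSA were 0.20 and 0.10, with limma adjusted p-values of 0.697 and 0.941. The order of the treatments also differed between the probes, since Rspo2 alone gave 0.10 by the first and 0.47 by the second (limma adjusted p = 0.392 and 0.0852).

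**Figure D2:**
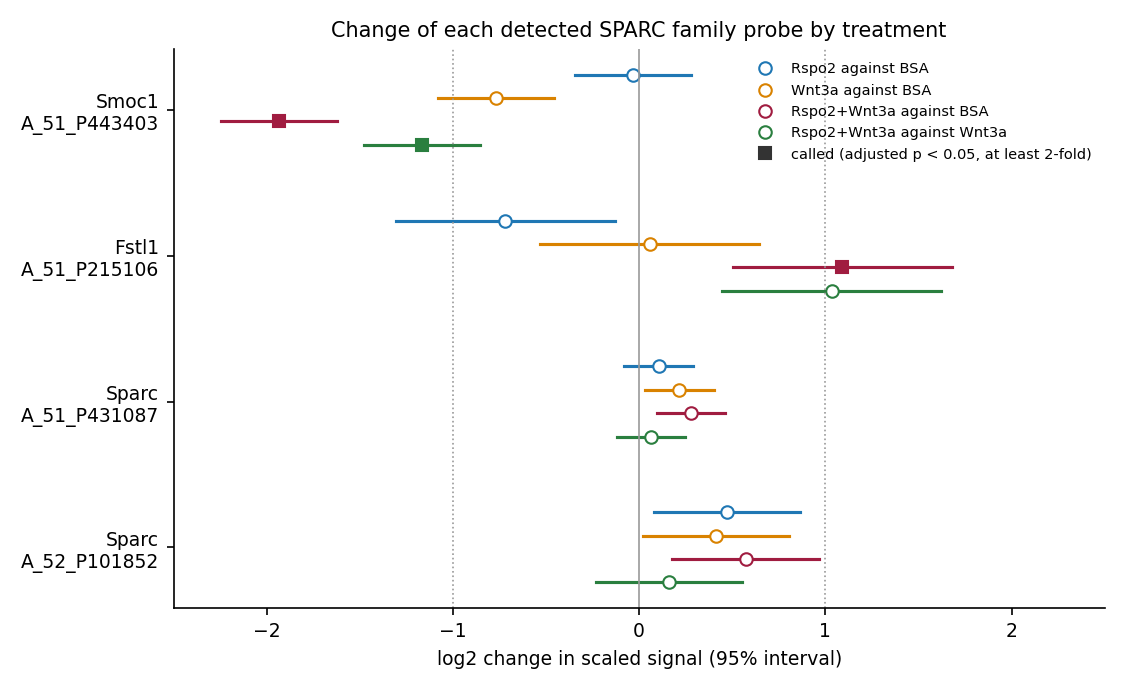
Log2 change in scaled signal (x axis) of the 4 detected member probes (y axis) with each treatment against BSA and with both proteins against Wnt3a; lines are 95% intervals, filled squares are called and open circles are not, and dotted lines mark 2-fold. *Smoc1* lies at -1.93 with both proteins, *Fstl1* at 1.09 with a BSA baseline that was not well above background on 2 of 3 arrays, and both *Sparc* probes between 0 and 1.

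The other 5 members had 10 probes, none of which met the detection rule, so they were not tested and no fold is given. Of their 120 values, 11 were well above background. Their intensities ran from 3.15 to 45.6, with a median of 7.84. No array gave a value well above background for *Sparcl1*, which encodes hevin, by either probe (highest 12.5), or for *Spock3* (highest 19.9).

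*Smoc2*, the paralog of *Smoc1*, was above background on BSA replicate 1 and Rspo2+Wnt3a replicate 1 by probe A_51_P213045 (45.6 and 35.1), and on BSA replicate 1 alone by A_52_P646762 (23.1). *Spock1* was above background on BSA replicate 1 alone, at 45.4 by A_52_P266339, and on no array by A_51_P298837. *Spock2* was above background on 5 of 12 arrays by A_52_P221756, including 1 or more of each group, where its intensities ran only from 21.9 to 40.1. The *Spock2* probe A_52_P393181 was above background on 2 arrays, and A_52_P385801 on none. Of the 14 member probes, 9 were above background on BSA replicate 1 and 7 on Rspo2+Wnt3a replicate 1, against 3 to 5 on the other arrays, and these were also the arrays with the highest shares over all probes (64.1% and 61.7%). The part of these array differences in the single dim values was not tested.

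**Figure D3:**
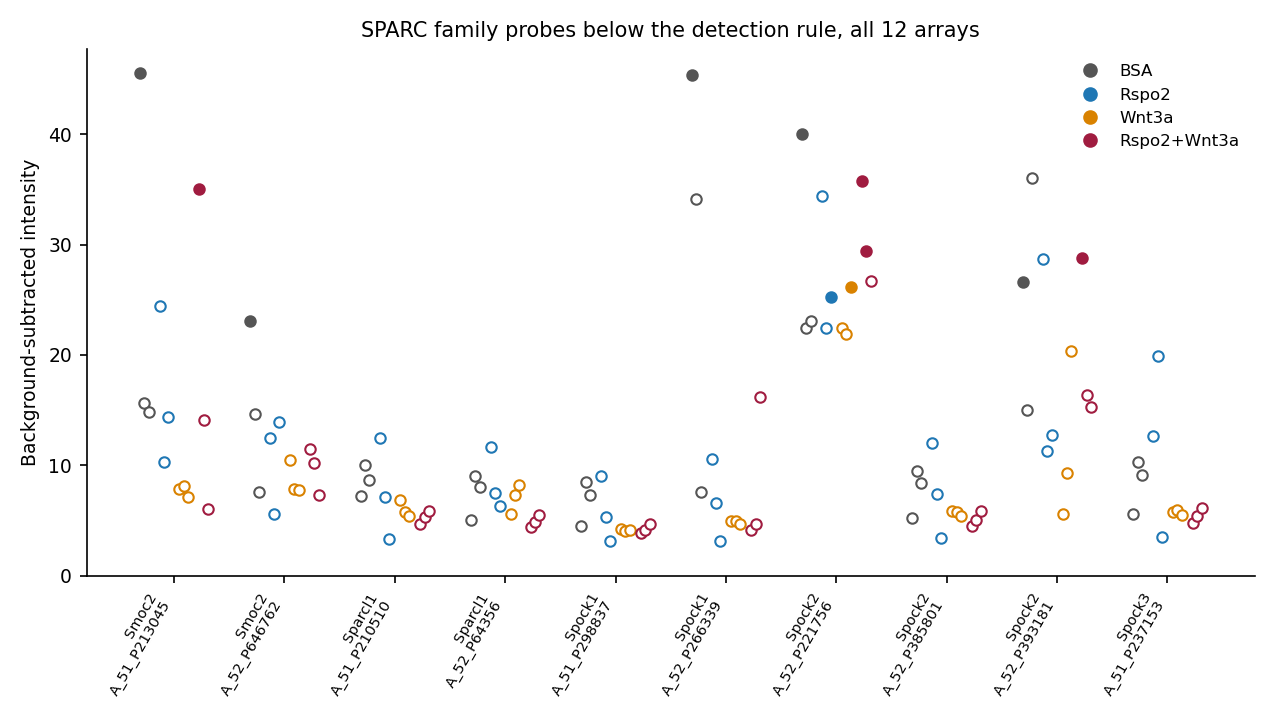
Background-subtracted intensity (y axis, linear) of the 10 member probes that missed the detection rule (x axis), with 1 point per array colored by treatment; filled points were well above background. Of the 120 points, 11 are filled, and the filled points with the highest intensities come from BSA replicate 1.

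Genes related to the family were described by counts, each gene by its brightest detected probe. Over all 13260 genes so represented, 1.47% were called higher and 3.14% lower with Rspo2+Wnt3a against BSA, and the median log2 change was 0.06. With Rspo2 alone 0.596% of genes were called and with Wnt3a alone 1.88%.

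Of 19 other matricellular genes, 13 were detected, of which 2 were called higher and 2 lower with both proteins, with a median log2 change of -0.21. *Ccn1* (*Cyr61*), an integrin-binding CCN protein, rose by 1.36 (SE 0.08, limma adjusted p = 9.23e-07). *Ccn2* (*Ctgf*), connective tissue growth factor, rose by 1.34 (SE 0.09, limma adjusted p = 3.51e-06). *Comp*, a thrombospondin of cartilage matrix, fell by 1.69 (SE 0.14, limma adjusted p = 1.14e-05). *Tnn*, tenascin N, had a log2 change of -2.27 in the fit (SE 0.49, limma adjusted p = 0.00436). No array with both proteins was above background for it, so this size is not a measured fold. It was 2.28-fold lower when those values were raised to the lowest signal well above background on their array. *Tnn* was above background on 3 BSA arrays, 1 Rspo2 array and 0 Wnt3a arrays. It passed the detection rule through the BSA group only, so its calls are no support for a change of the list. *Comp* and *Tnn* were also the 2 genes called with Wnt3a alone. Neither was called with slide in the fit, and the methods' t-test called 0 of the 13. Rspo2 alone gave 0 called by limma and by the methods' t-test. With Rspo2 alone 5 of 13 had an unadjusted limma p under 0.05, where 37.7% of all genes did. With slide as a term 3 of the 4 calls with both proteins remained, and that of *Tnn* did not. *Ctgf* is also among the genes the study selected from these arrays and checked by qRT-PCR.

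Of 9 genes with follistatin domains outside the family, 7 were detected, with 1 called higher and 1 lower with both proteins and a median log2 change of 0.34. *Fst*, follistatin, an extracellular activin antagonist, was above background on all 3 arrays with both proteins and on none with BSA. Its log2 change in the fit was 2.06 (SE 0.44, limma adjusted p = 0.00424), which is not a measured fold. It was 1.59-fold higher when the BSA values were raised to the lowest signal well above background on their array. It passed the detection rule through the group with both proteins only, as *Fstl1* did, so the count of genes called higher is no support for a change of the list. *Agrn*, agrin, a heparan sulfate proteoglycan of basement membranes, fell by 1.11 (SE 0.15, limma adjusted p = 0.000325). Neither was called once slide entered the fit.

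Of 17 ligands, substrates and receptors linked to the family, 15 were detected and 0 were called by limma with both proteins, also by the methods' t-test. The median log2 change was -0.25, 13 of the 15 values were below 0, where 43.7% of all genes were, and 9 had an unadjusted limma p under 0.05, where 49.96% of all genes did. The fibrillar collagen gene *Col3a1* had a log2 change of -0.85 (limma adjusted p = 0.00156) and *Bmp4*, a ligand bound by FSTL1, one of 0.78 (limma adjusted p = 0.000522), both under 2-fold.

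**Figure D4:**
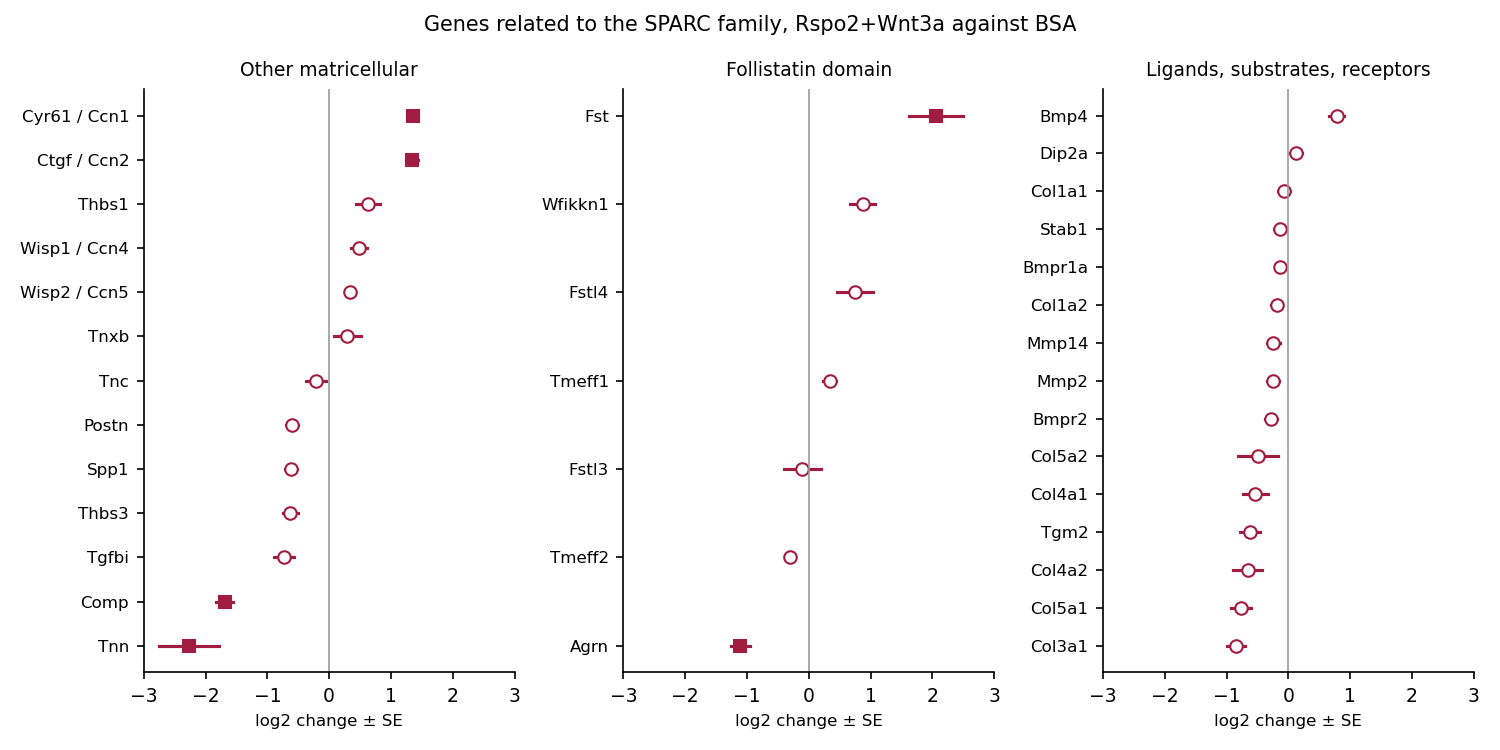
Log2 change with Rspo2+Wnt3a against BSA (x axis, ± SE) of the detected genes in the 3 related lists (y axis); filled squares are called and open circles are not. The called genes are *Ccn1*, *Ccn2*, *Comp* and *Tnn* among other matricellular genes and *Fst* and *Agrn* among follistatin-domain genes, and none of the 15 partner genes is called.

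The probes with the patterns most like that of *Smoc1* over the 12 arrays belonged to *Ccbe1* (Pearson r = 0.990), *Plpp3* (r = 0.989) and *Depdc6* (r = 0.988), out of 20538 probes of other genes. Their log2 changes with both proteins were -0.86, -1.56 and -2.04, beside -1.93 for *Smoc1*. For *Fstl1* they belonged to *Nr1d2* (r = 0.946), *Zfhx1b* (r = 0.944) and *Dmtf1* (r = 0.940), whose log2 changes with both proteins were 0.22, 0.53 and 0.13, beside 1.09 for *Fstl1*. These values describe the same 12 arrays, which share treatments and scaling.

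The label of the cells was set against marker genes. Of 5 luminal and general epithelial markers, *Krt8* alone was detected, and *Epcam*, *Cdh1*, *Krt18* and *Krt19* were not. All 4 basal or myoepithelial markers (*Krt5*, *Krt14*, *Acta2*, *Trp63*) and 4 of 5 mesenchymal markers were detected, the exception being *Thy1*. With both proteins *Krt8* fell by 1.15 (limma adjusted p = 0.000365). Of the 4 basal markers, each by its brightest detected probe, 3 had values above 0 and 1 below. *Krt14* was called (1.24, limma adjusted p = 8.28e-06) and *Trp63* was at -0.40 (limma adjusted p = 0.0143). The brightest *Acta2* probe was not called (0.78), though 2 of the 4 detected probes of *Acta2* were. Of the 4 detected mesenchymal markers 1 had a value above 0 and 3 below, with *Pdgfra* called (-1.37, limma adjusted p = 8.77e-06) and *Vim* at 0.17 (limma adjusted p = 0.127). Of the 3 calls by brightest probe, those of *Krt8*, *Krt14* and *Pdgfra*, that of *Pdgfra* alone was kept once slide entered the fit. Neither adipocyte marker was detected, nor were the leukocyte marker *Ptprc* and the endothelial marker *Pecam1*, whereas *Cd68* and *Cdh5* were. Whether these marker changes have a part in the changes of *Smoc1* and *Fstl1* was not tested, and in bulk RNA fewer cells of a type and less RNA per cell cannot be told apart.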

How the data were processed

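RNA of 12 C57MG monolayers was hybridized to single-color Agilent arrays. The authors made the deposited intensity values with Agilent Feature Extraction 9.5.3.1 (per the submitters' processing notes), which subtracted background; the deposited files also hold spot flags. A deposited table of ratio values, each signal over the 75th percentile of its array by the authors, served as an alternative. Genome build of the array's own coordinates: not given in the sources used here.

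Spots marked uneven or as outliers were left out (1327 of 520548 spot values), spots of a probe averaged, and log2 values reduced by the array's 75th percentile. A probe printed more than once was above background if at least 0.5 of its spots were, and each group needed values on at least 2 arrays. Linear models over all 12 arrays were fitted in limma 3.58.1 (R 4.3.3), two-sided, and p-values adjusted over 22750 detected probes by Benjamini-Hochberg. The code was tested on simulated data. Named genes are the members, at most 4 called genes of each related list with the largest changes, 3 probes most like each called member, and cell type markers. *Col3a1* and *Bmp4*, of the related list with no call, were named outside this rule. Members and lists were chosen with earlier results of these data known. Precision is limited by having 3 arrays in a group. The exact permutation test of 3 against 3 arrays cannot go below 0.1, so none was used. Alternatives covered background correction, scaling, filters, test, replicate number, slide and single arrays.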

Additional observations from a re-analysis of the deposited data

Results flagged for a closer look

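The interaction test, of the change with both proteins less the changes with each alone, was called for *Smoc1* and *Fstl1*. For *Smoc1* the log2 difference was -1.13 (limma adjusted p = 0.0101), and it ranged from -1.31 to -1.03 when single arrays were left out. For *Fstl1* the fit gave 1.75 (limma adjusted p = 0.0219), but the probe was tested only because it was well above background on the 3 arrays with both proteins, and was so on 1 BSA array, 0 Rspo2 arrays and 1 Wnt3a array, so this difference has no measured baseline. Neither interaction was called with slide as a term (limma adjusted p = 0.132 and 0.159), with no filter (0.0519 and 0.0867) or with normexp (0.914 and 0.958), where that of *Fstl1* was -0.20. Groups of 3 arrays are too small for the test of single outlying arrays.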

How the results depend on the processing

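The signals of *Smoc1* and *Fstl1* were dim, and those of *Sparc* were not. The count of member probes called with Rspo2 against BSA was 0 under every alternative run. With Wnt3a it was 0 except 1 with no fold requirement. With Rspo2+Wnt3a against BSA the 2 called became 4 with no fold requirement, 1 with the 75th percentile taken from those probes that all 12 arrays had well above background, 1 with the filter to those probes, 1 with the methods' t-test with or without adjustment, 1 with slide as a term, and 0 with normexp. Against Wnt3a the 1 called became 0 with normexp, 0 with the methods' t-test adjusted, and 2 with that test unadjusted, with only the groups compared, or with the mean over a gene's detected probes. The 2 interactions became 0 with normexp, with no filter and with slide as a term, and 1 with the filter on all arrays. Leaving out BSA replicate 1 and Rspo2 replicate 2 as well under normexp, chosen after seeing the data, gave 0 in each of these 3 comparisons. Under normexp the *Fstl1* change with both proteins was -0.063 (log2) and its interaction -0.20, both opposite in sign to the main values; the cause was not tested.

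Leaving out single arrays gave 1 to 2 called with both proteins against BSA, 1 to 2 against Wnt3a and 1 to 2 interactions, always with *Fstl1* as the probe that moved. The arrays were BSA replicate 2 and Rspo2+Wnt3a replicate 1 in the first comparison (*Fstl1* 0.86 and 0.99), BSA replicates 1 and 2 in the second (*Fstl1* limma adjusted p = 0.0137 and 0.0433), and Rspo2 replicate 3 and Rspo2+Wnt3a replicate 2 in the third (limma adjusted p = 0.0559 and 0.0503). *Smoc1* ranged from -2.11 to -1.83 with both proteins. Deviations from the group means correlated from -0.41 to 0.27 over the 18 pairs of same-numbered arrays, so the numbers were not taken as pairing them; the fit with the replicate block gave 0, 0, 2, 1 and 2 called in the 5 comparisons and changed no call. That other percentile moved the median change of all probes with Wnt3a from -0.0003 to -0.12 on the log2 scale.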
